A study of Mus musculus with 9 samples.

Results

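The Eph receptors and ephrins, a family of axon guidance molecules, were examined in single-cell RNA sequencing of mouse neocortex at E18.5. The 10 genes are 6 receptors (*Epha3*, *Epha4*, *Epha5*, *Epha7*, *Ephb1* and *Ephb2*) and 4 ephrins, their ligands (*Efna3*, *Efna5*, *Efnb1* and *Efnb2*). They were taken by name from the 17487 genes that the 9 tables hold together, and all 10 have UMIs in the tables. A UMI (unique molecular identifier) marks 1 captured RNA molecule, and levels are given as UMIs per 10000 UMIs of a cell, averaged over the cells of a library. The kit tags the 3′ ends of transcripts, so that a molecule counts once whatever its length.

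Each library came from the neocortex of 1 embryo. The 5 libraries labelled WT came from wild-type embryos, and the 4 labelled KO from littermates homozygous for the Tcf4ex4 lacZ allele, all from matings of heterozygous mice. In the study's description a cassette with lacZ and neomycin resistance sits ahead of exon 4 in *Tcf4*, which encodes a basic helix-loop-helix transcription factor. Only the longest protein, TCF4B, is lost there, while shorter ones persist, so that KO does not mean absence of all TCF4. The genotypes were compared between WT2, WT3 and WT4 and KO4 and KO5, since the study kept only libraries above a minimum number of cells and left out a WT animal whose *Tcf4* lay below that of the KO. From the numbers of cells in the study this animal is taken to be WT5, so that the WT libraries were chosen in part on *Tcf4*. Values of these libraries are given in this order, and they are called the WT libraries and the KO libraries below. No source used here says how litters were shared, and p-values measure the spread between these 5 libraries.

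Eph receptors are receptor tyrosine kinases that bind ephrins on the surface of neighbouring cells. A-type ephrins are held in the membrane by a lipid anchor, whereas B-type ephrins span it and can signal back into the cell that carries them. Binding usually turns growth cones away, through guanine nucleotide exchange factors and the GTPase RhoA that act on actin. In the cortex the family is known for the sorting of thalamic and callosal axons, the migration of neurons and the control of progenitors in the ventricular zone.

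TCF4 binds DNA at E-boxes, written CANNTG, where N is any base. The 250 bases before the RefSeq transcription start (GRCm38.p6) were therefore searched for these letters, which read the same on both strands in this pattern. Of the 12 windows of the 10 genes, 3 hold an E-box, in *Efna3*, *Efnb2* and *Ephb2*, against 66.2% of the 32851 windows of all genes. The member windows are richer in G and C, at 54 to 74.8% against a median of 52.4%. The 2 windows below that hold an E-box are shown with that of *Epha4*, the only member called between the genotypes, which holds none. Capitals mark the E-boxes, and all 3 sequences are written 5′ to 3′ on the gene's strand, which is the minus strand each time.
Ephb2, chr4:136836013-136836262: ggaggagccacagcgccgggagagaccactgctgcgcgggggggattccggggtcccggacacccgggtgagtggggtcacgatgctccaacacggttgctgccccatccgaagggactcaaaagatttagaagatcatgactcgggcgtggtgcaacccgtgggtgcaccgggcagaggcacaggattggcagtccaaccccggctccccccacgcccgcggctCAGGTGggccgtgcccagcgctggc
Efnb2, chr8:8661243-8661492: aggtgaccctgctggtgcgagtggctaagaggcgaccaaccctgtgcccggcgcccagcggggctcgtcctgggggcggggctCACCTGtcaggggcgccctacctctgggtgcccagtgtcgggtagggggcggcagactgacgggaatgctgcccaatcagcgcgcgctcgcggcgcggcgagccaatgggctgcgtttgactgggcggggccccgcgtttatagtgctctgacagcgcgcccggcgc
Epha4, chr1:77515089-77515338: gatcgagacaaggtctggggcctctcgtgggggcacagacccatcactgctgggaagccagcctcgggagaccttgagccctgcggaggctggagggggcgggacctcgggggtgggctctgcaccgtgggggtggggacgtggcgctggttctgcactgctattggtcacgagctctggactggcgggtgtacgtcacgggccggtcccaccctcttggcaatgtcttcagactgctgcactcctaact
The E-box of *Ephb2* starts 25 bases before the transcription start, and that of *Efnb2* starts 167 bases before it. An E-box in a window is a match of letters and not a measured binding site.

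In GENCODE vM21 on GRCm38 the members lie on 9 chromosomes, from the 9067 bases of *Efna3* (chromosome 3, 89313899 to 89322965) to the 432566 bases of *Ephb1* (chromosome 9, 101922128 to 102354693). *Epha7* and *Ephb2* share chromosome 4, and *Efnb1* is on the X chromosome. No gene that overlaps a member on the same strand is present in the tables, while antisense genes of *Ephb1* (9630041A04Rik and Gm26846) and of *Efna3* (Gm15998) are listed there under their own names. *Efnb1* can be read between these libraries only with the sex of the embryos in view, as KO5 had 0 *Xist* UMIs and 545 UMIs of 4 Y-linked genes, while every other library had *Xist* and none of the Y-linked genes.

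Cells were sorted into 11 classes by marker genes, after each cell was thinned to 1700 UMIs. A cell entered a gate when at least 2 of the markers of that class were detected and no other class had as many. In the 9 libraries 52.9 to 61.1% of the kept cells entered a gate. None of the members is a marker. Kept cells numbered 1184, 1617 and 6173 in the WT libraries, with 4199 and 2303 in the KO libraries, at medians of 2479, 3636 and 4359 UMIs and of 2290 and 2217 UMIs per cell. At most 46 cell barcodes were shared by any pair of libraries (WT4 and KO4).

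The libraries did not separate cell classes equally well, and every result between the genotypes has to be read beside this. Neuronal RNA that no gate used (*Tubb3*, *Stmn2*, *Neurod2* and *Neurod6*, a panel chosen after the data were seen) summed to 76.8, 68.1 and 69.1 UMIs per 10000 in the upper layer gates of the WT libraries. In endothelial, pericyte and microglial cells of these libraries, called the vascular and microglial gate hereafter, it was at 12.8, 8.38 and 24.4% of the upper layer value. The same gate held 73.3% of the upper layer value in KO4, 89.1% in KO5 and 81.1% in WT5. Microglial markers in the microglia gate were at 172 UMIs per 10000 in WT4, which had 52 such cells, and at 28.4 in KO4, which had 43. Haemoglobin differed between the compared libraries as well. Cells with over 1% haemoglobin UMIs, which were left out, made up 0.421 to 1.34% of WT2 to WT4, 13.9% of KO4 and 40.4% of KO5. In the other libraries this share did not follow the labels, at 3.08% in WT1, 3.71% in WT5, 4.34% in KO1 and 1.67% in KO2. Of 4 haemoglobin genes tested in the cells that were kept, 4 were still higher in the KO libraries both in all kept cells and in GABAergic neurons, with median log2 differences of 2.62 and 2.69. Their part in the values of the members was not tested.

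The targeted gene did not follow the labels in every library. *Tcf4* was at 12.2, 12.6 and 12.2 UMIs per 10000 in all kept cells of the WT libraries, against 9.29 and 7.59 in the KO libraries. Its level was 16.7 in the library labelled KO1, above every library labelled WT, 7.20 in the library labelled WT5 and 4.65 in WT1, which had 126 kept cells. KO2 had 118 kept cells and a level of 9.12. Since a WT animal was left out on the level of this gene, the difference is a description with no test. Since a 3′ tag counts transcripts of the short isoforms too, this level does not check the loss of TCF4B. Deep layer neurons and radial glia of the KO libraries overlapped with those of the WT libraries in *Tcf4* (9.32 and 8.02 against 9.95, 8.98 and 8.77 in the deep layer gate).

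Among neural gates of the WT libraries the members differed in where they were highest. The 6 gates with at least 20 cells in each of WT2, WT3 and WT4 were radial glia or astrocyte, intermediate progenitor, newborn neuron, upper layer, deep layer and GABAergic neuron. Levels below are the mean ± SD over these 3 libraries, and 2 neighbours in the order are said to differ when their mean difference within a library was larger than its SD.

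*Epha5*, an A-type receptor that sorts axons along gradients of A-type ephrins, had the highest UMI level of the 10 members in all 6 gates. It led in newborn neurons, at 4.68, 8.53 and 8.13 UMIs per 10000 (7.11 ± 2.12, SD, n = 3). Upper layer neurons followed at 3.28, 5.71 and 7.12, and deep layer neurons at 2.99, 3.86 and 5.62. Newborn neurons exceeded upper layer neurons by 1.74 ± 0.953, and these exceeded deep layer neurons by 1.22 ± 0.815, each in all 3 libraries. Deep layer neurons, intermediate progenitors (4.13 ± 0.277) and GABAergic neurons (3.94 ± 1.10) did not differ by more than their spread. Radial glia were lowest, at 3.33 ± 0.626.

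*Epha4*, a receptor that binds ephrins of both types, was highest in newborn neurons and intermediate progenitors. Newborn neurons held 3.65, 2.06 and 2.26 UMIs per 10000 and intermediate progenitors 2.46, 2.73 and 2.43, and these 2 gates did not differ beyond their spread. Deep layer neurons (2.25, 2.33 and 1.71) lay below intermediate progenitors in 3 of 3 libraries. Upper layer neurons had the lowest mean, at 1.25, 1.27 and 1.27, and radial glia (1.32 ± 0.314) did not differ from them beyond the spread. Deep layer neurons were thus above upper layer neurons in every WT library.

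*Epha3*, an A-type receptor of migrating and projecting cortical neurons, separated the layers the other way. Upper layer neurons held 0.946, 1.92 and 1.62 UMIs per 10000 and deep layer neurons 0.337, 0.560 and 0.652. Intermediate progenitors (1.63 ± 0.484), newborn neurons (1.5 ± 0.719) and upper layer neurons (1.49 ± 0.497) did not differ beyond their spread, and radial glia (0.482 ± 0.132) were at the deep layer level (0.517 ± 0.162).

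*Epha7*, a receptor with truncated forms that can turn repulsion into adhesion, had its highest mean in deep layer neurons, at 0.498, 0.735 and 0.853, which did not differ from newborn neurons (0.535 ± 0.0599) beyond the spread. Its lowest mean was in radial glia, at 0.120, 0.273 and 0.285, which did not differ from GABAergic neurons (0.4 ± 0.171) beyond the spread. *Ephb1*, a B-type receptor known from the crossing of retinal axons, was highest in deep layer neurons, at 0.567, 0.878 and 0.915, and exceeded newborn neurons there by 0.390 ± 0.279 in 3 of 3 libraries. Its lowest gate was intermediate progenitors (0.173 ± 0.111). *Ephb2*, a B-type receptor of commissural axons and synapses, stood at 0.383, 0.301 and 0.4 in upper layer neurons and at 0.179, 0.136 and 0.259 in deep layer neurons. These 2 layers differed by 0.170 ± 0.0323, while newborn neurons (0.368 ± 0.0364) and upper layer neurons did not differ beyond their spread. All 3 of these receptors stayed below 1 UMI per 10000 in the 6 gates of each WT library.

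Among the ligands, *Efnb1* was highest in progenitors. *Efnb1*, a transmembrane ephrin of cortical progenitors, held 1.13, 1.65 and 1.08 UMIs per 10000 in radial glia and 1.17, 1.43 and 0.943 in intermediate progenitors, and these did not differ beyond their spread. Newborn neurons were lower than intermediate progenitors by 0.439 ± 0.137, in 3 of 3 libraries, and upper layer neurons held 0.488, 0.638 and 0.425. *Efnb2*, a transmembrane ephrin of neurons and of arterial endothelium, was at 0.717, 0.868 and 1.10 in upper layer neurons, above deep layer neurons by 0.222 ± 0.139. In endothelial cells it was at 0.835, 0.933 and 0.369, from 19, 12 and 35 cells. It was the highest member there in WT2 and WT3, while in WT4 *Epha5* (1.49), *Epha4* (0.601) and *Epha7* (0.438) were above it.

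*Efna3*, a lipid-anchored ephrin, had its highest mean among the 6 gates in upper layer neurons (0.439 ± 0.0973), which did not differ from deep layer neurons (0.326 ± 0.113) beyond the spread. Cajal-Retzius cells, early neurons of the cortical surface that make reelin, were above this, at 0.978, 0.9 and 0.755, from 30, 11 and 34 cells. *Efna5*, the lipid-anchored ligand best known for thalamocortical and retinal maps, was the lowest member, with gate means from 0.0524 to 0.141. No neighbours in its order differed beyond their spread.

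**Figure D1:**
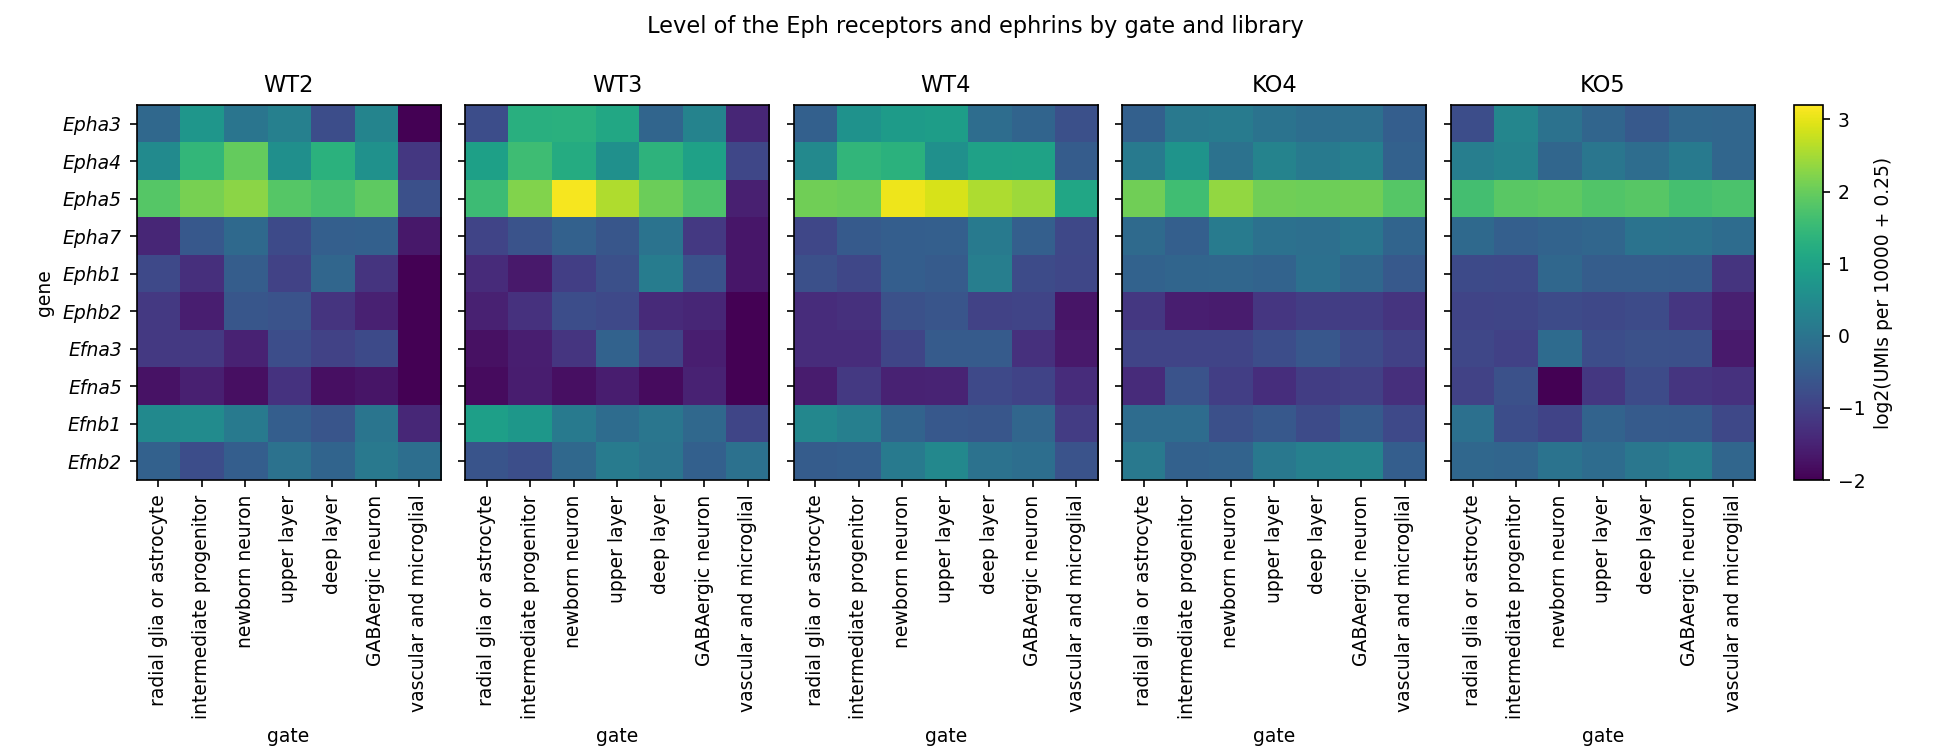
Level of each member (rows) in 6 neural gates and the vascular and microglial gate (columns), as log2 of UMIs per 10000 plus 0.25, with 1 panel per library. The vascular and microglial column is darker than the neural columns for *Epha5* in the WT libraries (0.352, 0.0928 and 1.87 UMIs per 10000) and nearly as bright as them in KO4 and KO5 (3.32 and 3.07).

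Differences between classes were tested within libraries across all genes, leaving out the marker genes, with limma on library means to which 0.25 UMIs per 10000 was added before taking log2. Since this scale adds 0.25, it understates changes of low genes. Glutamatergic neurons (newborn, upper and deep layer gates together) against radial glia gave 8 called members among the 9 tested in WT2, WT3 and WT4, at a background of 38.6% of 8430 genes called. Of these, 7 were higher in neurons, and *Efnb1* was lower, by -0.95 ± 0.13 (log2, SE) with an adjusted p of 0.000198 in limma. *Epha3* was higher by 1.08 ± 0.24 and *Efna3* by 0.76 ± 0.18 on this scale. *Epha4* did not pass (0.24, 95% interval -0.05 to 0.54), and *Efna5* was below the limit on low values. The median over the 9 members was 0.58, against -0.00 over all genes tested.

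With KO4 and KO5 added, 6 of the 10 members were called, 5 higher and *Efnb1* lower, beside 25.4% of 8328 genes. *Epha5* (0.41, adjusted p = 0.0573 in limma) and *Ephb2* (0.35, adjusted p = 0.0516 in limma) then missed the threshold. Leaving out WT2, WT3 or WT4 from the 5 libraries left 0 genes called by limma, with 2690, 2432 and 2297 at an unadjusted p under 0.05. No member turned its direction under any alternative that was tried.

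Upper against deep layer neurons gave no called gene among 8011 in the 5 libraries (0%) and none among 8012 in the WT libraries (0%), where 244 and 284 genes had an unadjusted limma p under 0.05. *Epha3* was higher in the upper layer gate by 1.17 (95% interval 0.72 to 1.61) in WT2, WT3 and WT4, with an adjusted p of 0.261. *Ephb1* was lower there by -0.77 (-1.31 to -0.24), *Epha4* by -0.62 (-1.12 to -0.12) and *Epha7* by -0.52 (-0.99 to -0.06), each with an adjusted p of 0.786. These 4 receptors differed in the same direction in all 3 WT libraries, but none passed the correction over all genes. Glutamatergic against GABAergic neurons called no member by limma, beside 0% of 8103 genes in 5 libraries and 6.44% of 8090 genes in the WT libraries. An unadjusted limma p under 0.05 was found for 1 member and 910 genes in 5 libraries. In the WT libraries it was found for 4 members and 1794 genes. *Efna3* (0.58, adjusted p = 0.0887 in limma) and *Ephb2* (0.52, adjusted p = 0.104 in limma) had the largest values of the members in the WT libraries.

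**Figure D2:**
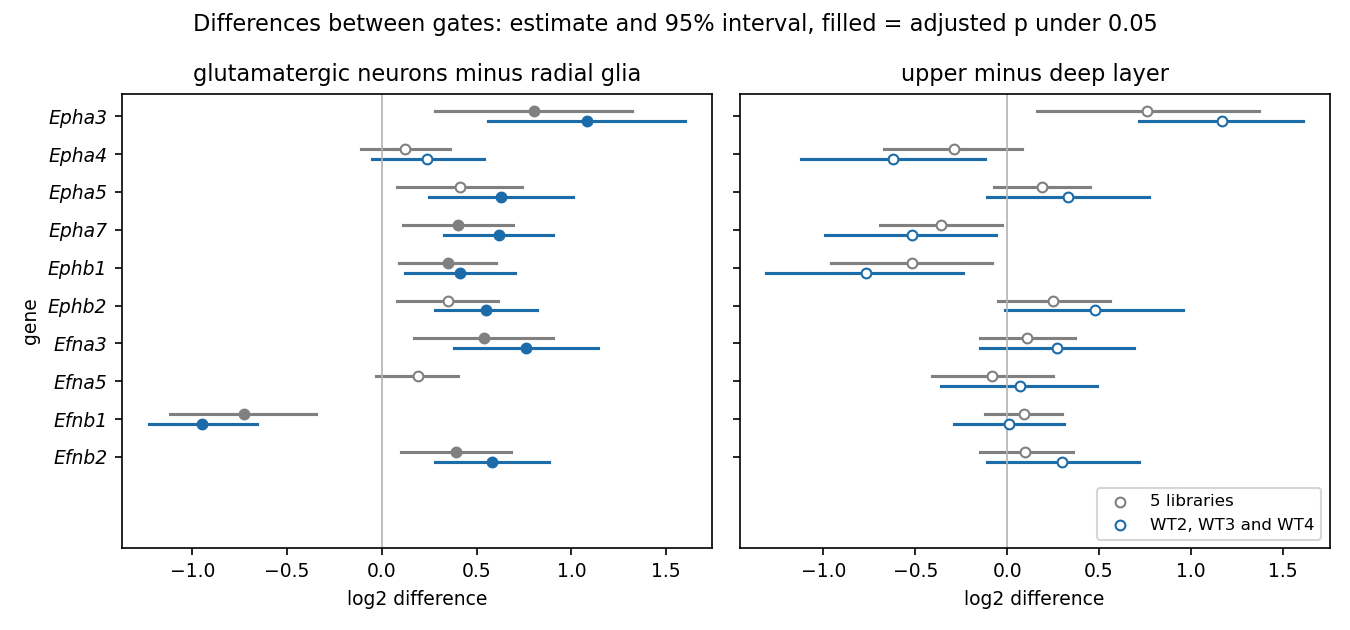
Difference of each member between glutamatergic neurons and radial glia (left) and between upper and deep layer neurons (right), in log2 units, for 5 libraries (grey) and for WT2, WT3 and WT4 (blue), with 95% intervals and filled points where the adjusted p is under 0.05. On the left *Efnb1* is at -0.95 in the WT libraries and at -0.73 in 5 libraries and the points of the other members lie right of 0, while no point on the right is filled.

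The number of members found in 1 cell was counted as well. After thinning to 1800 UMIs, an upper layer neuron had UMIs of 1.16, 1.52 and 1.61 members on average in the WT libraries, against 1.3 and 1.19 in the KO libraries. A receptor and a ligand were found together in 16.2, 22.7 and 25.3% of these cells in the WT libraries and in 18.2 and 15.6% in the KO libraries. Any receptor was found in 62.7, 74.9 and 80.7% against 70.2 and 64.2%. For any ligand the shares were 25.4, 30.6 and 30.9% against 27.2 and 26.1%. Whether both met in a cell more often than these separate shares give was not tested. In GABAergic neurons the mean number of members was 1.15, 1.04 and 1.23 against 1.31 and 1.18. In the vascular and microglial gate it was 0.115, 0.4 and 0.505 in the WT libraries and 0.984 and 0.959 in the KO libraries. The difference was -0.182 in upper layer neurons (exact permutation p = 0.6, 2-sided) and 0.631 in the vascular and microglial gate (exact permutation p = 0.2, 2-sided). This 2-sided p doubles that of 1 side, so that 0.2 is the smallest it can take here. Neither difference can reach a p under 0.05 with 5 libraries.

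The members' levels outside neurons give the background against which the genotypes have to be read. *Epha5* in the vascular and microglial gate was at 0.352, 0.0928 and 1.87 UMIs per 10000 in the WT libraries, against 3.32 and 3.07 in the KO libraries. This was 10.7, 1.62 and 26.2% of its level in upper layer neurons of the WT libraries, and 84.2 and 96.4% of it in the KO libraries. The gap between the 2 gates was 2.93, 5.62 and 5.25 UMIs per 10000 in the WT libraries and 0.620 and 0.116 in the KO libraries, without overlap, and the genotype was not tested on it. Thinned to 1800 UMIs, 40.8% of these cells in KO5 had an *Epha5* UMI (20 of 49, 95% Wilson interval 28.2 to 54.8), against 43% of its upper layer neurons (38.7 to 47.3), with medians of 2101 and 2205 UMIs per cell. In WT3 it was 0 of 20 cells, which allows a share of up to 15%, against 59.6% of its upper layer neurons. Without thinning the shares were 49% and 50.3% in KO5 and 5% and 80.4% in WT3. The share in upper layer neurons of KO5 lay within the interval of the share in its vascular and microglial gate. What part of either share is expression by the gated cells was not tested. These intervals cover counting error only.

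*Epha3* and *Epha4* were also closer between the gates in the KO libraries. For *Epha3* the vascular and microglial gate reached 0, 6.04 and 21.6% of the upper layer level in the WT libraries, against 66.3 and 103% in the KO libraries. For *Epha4* these values were 15.7, 22.7 and 36.6%, and 50.6 and 72.1%. *Efnb2*, which endothelial cells make, was at 93.1, 82.1 and 34% in the WT libraries, and at 60.4 and 88% in the KO libraries. From the lowest to the highest of the 6 neural gates *Epha5* spanned 1.57-, 3.13- and 2.12-fold in the WT libraries and 1.75- and 1.21-fold in the KO libraries. *Epha3* spanned 4.14-, 6.47- and 3.19-fold against 1.70- and 3.16-fold, so that the ranges came close without overlap for *Epha3* and overlapped for *Epha5*. What part of the levels in KO4 and KO5 neurons is RNA from other cells was not tested.

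**Figure D3:**
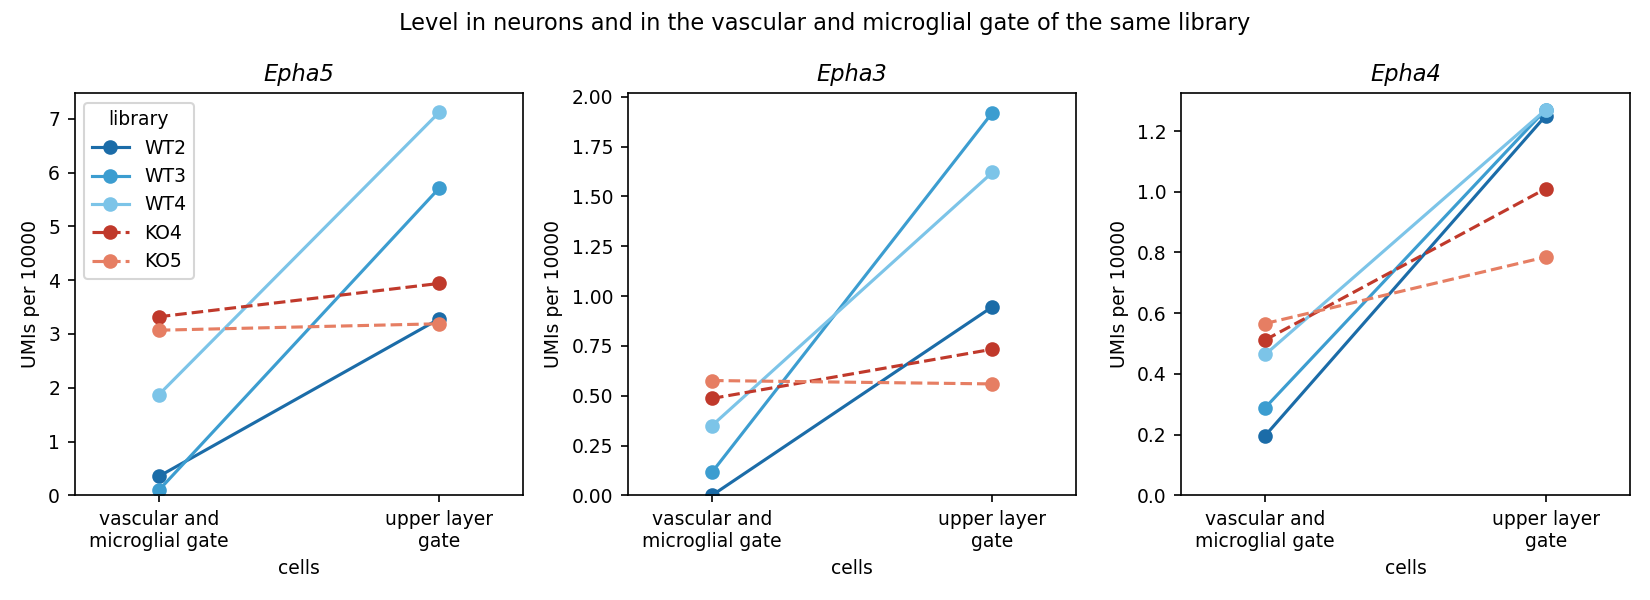
Level of *Epha5*, *Epha3* and *Epha4* (UMIs per 10000) in the vascular and microglial gate and in the upper layer gate of the same library, joined by a line (solid for WT, dashed for KO). Lines of the WT libraries rise in all panels, and those of *Epha5* in KO4 and KO5 run from 3.32 to 3.94 and from 3.07 to 3.19.

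In all kept cells *Epha4* fell in the KO libraries, and it was the only member called. Its level was 1.44, 1.59 and 1.51 UMIs per 10000 in the WT libraries (1.51 ± 0.0754, SD, n = 3) against 0.872 and 0.762 in the KO libraries (0.817 ± 0.0781, SD, n = 2). The groups did not overlap, and the log2 difference was -0.72 ± 0.11 (SE, 95% interval -0.98 to -0.47) with a limma adjusted p of 0.0254. This was 1 of 10 members beside 1.11% of 8229 genes called, 83 of which were higher and 8 lower (436 and 980 without WT4), with a median log2 difference over all genes of -0.11. The call was lost without WT2, KO4 or KO5 (6, 16 and 0 genes called), while the log2 difference stayed between -0.80 and -0.65 on leaving out any library. DESeq2 kept the call (-0.70, DESeq2 adjusted p = 0.000874), whereas edgeR gave -0.70 with an edgeR adjusted p of 0.0508, and limma without a limit on low values -0.72 with an adjusted p of 0.0588. With over 0.2% haemoglobin left out the difference was -0.85 and was not called (limma adjusted p = 0.399, 0 genes called, 961 with an unadjusted p under 0.05). It was also lost with the replicate number as a block, which had to include WT5 and KO2 (-0.26 ± 0.14, limma adjusted p = 0.677), and with WT5 added (-0.50, limma adjusted p = 0.676). With the block 0 genes were called by limma and 613 had an unadjusted p under 0.05, the lowest of the members being that of *Epha5* (-0.71 ± 0.15, limma adjusted p = 0.23). The library labelled KO1, with the highest *Tcf4*, had the highest *Epha4* of all 9 libraries (2.40), and the library labelled WT5 had the lowest (0.690). WT1, with the lowest *Tcf4*, held *Epha4* at 1.20, above KO4 and KO5. *Epha4* was lowest in WT5, KO5 and KO4, whose vascular and microglial gates held the most neuronal RNA (81.1, 89.1 and 73.3% of the upper layer value). The part of this background in the *Epha4* difference was not tested.

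The other members in all kept cells did not pass the test. *Epha3* was at 0.796, 1.58 and 1.06 in the WT libraries and at 0.656 and 0.556 in the KO libraries, without overlap (-0.67 ± 0.22, limma adjusted p = 0.147). *Epha7* was at 0.373, 0.394 and 0.554 against 0.675 and 0.615 (0.38 ± 0.13, limma adjusted p = 0.152), and *Efna5* at 0.108, 0.0725 and 0.168 against 0.210 and 0.223 (0.36 ± 0.11, limma adjusted p = 0.145). Both had higher values in KO4 and KO5 without overlap. How many of all genes separate without overlap was not counted. In this fit 4 members and 2185 of 8229 genes had an unadjusted limma p under 0.05. Without WT4 *Epha7* and *Efna5* were called (0.498 and 0.455, limma adjusted p = 0.0247 and 0.0228), as was *Ephb1* (0.436, limma adjusted p = 0.0298). That fit called 1416 of 8164 genes, 436 higher and 980 lower. *Epha7* turned direction with over 0.2% haemoglobin left out (-0.320) and with the replicate block (-0.029). *Epha5* was at 3.13, 5.03 and 5.79 against 3.83 and 3.21, and its groups overlapped (-0.34, 95% interval -0.90 to 0.22). The groups of *Ephb1* (0.299, 0.295 and 0.479 against 0.520 and 0.460), *Ephb2* (0.237, 0.217 and 0.299 against 0.196 and 0.241), *Efnb1* (0.597, 0.787 and 0.5 against 0.411 and 0.525) and *Efnb2* (0.6, 0.622 and 0.824 against 0.797 and 0.744) overlapped as well. *Efna3* held 0.334, 0.342 and 0.347 against 0.344 and 0.345, with an interval of the log2 difference from -0.18 to 0.20. The share of each class among the kept cells differs between libraries, and for these members fewer cells of a class and less RNA per cell cannot be told apart in all kept cells.

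*Epha4* was also lower in the KO libraries, without overlap, in each of the 6 neural gates and in the cells that entered no gate. Newborn neurons held 3.65, 2.06 and 2.26 UMIs per 10000 in the WT libraries against 0.718 and 0.566 in the KO libraries. These KO values rest on 13 and 5 UMIs in 67 and 42 cells. Deep layer neurons held 2.25, 2.33 and 1.71 against 0.851 and 0.655, and intermediate progenitors 2.46, 2.73 and 2.43 against 1.36 and 0.997. The KO values of intermediate progenitors rest on 30 and 7 UMIs in 63 and 32 cells. In radial glia the values were 1.16, 1.68 and 1.11 against 0.836 and 0.915, the closest of these gates. These levels are given without a test. In the vascular and microglial gate the order was the other way, at 0.197, 0.289 and 0.464 against 0.512 and 0.566. How many of all genes separate in the neural gates was not counted. Gates of the same library share its background, so they are not independent of one another. In thinned cells, the radial glia shares with an *Epha4* UMI overlapped, at 20, 24.3 and 15.5% in the WT libraries against 15.2 and 17.7% in the KO libraries. Such shares did not overlap in upper layer or GABAergic neurons.

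**Figure D4:**
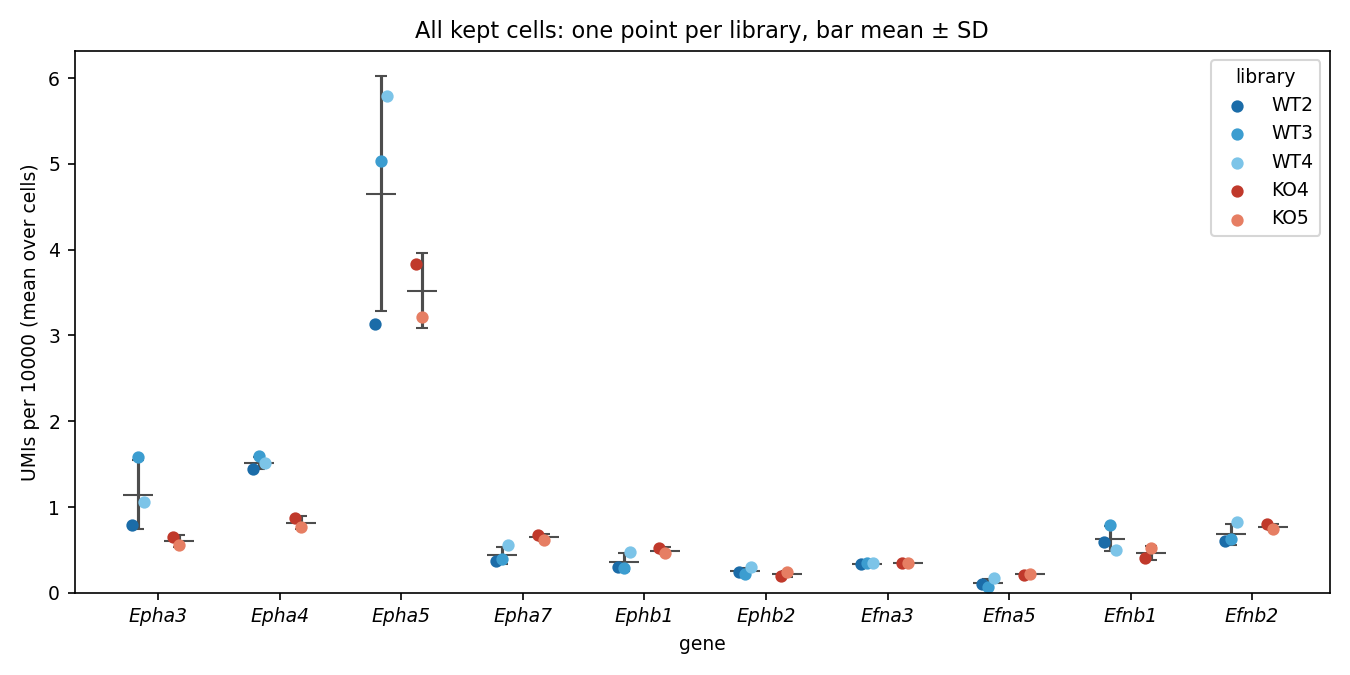
UMIs per 10000 of each member in all kept cells, with 1 point per library and the mean ± SD of WT2, WT3 and WT4 (n = 3) and of KO4 and KO5 (n = 2). *Epha3* and *Epha4* are lower in both KO libraries than in all 3 WT libraries, whereas *Epha5* of WT2 (3.13) lies below both KO libraries.

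In upper layer neurons, which numbered 228, 490 and 1164 cells in the WT libraries and 951 and 505 in the KO libraries, the levels of the genotypes are given without a test. *Epha4* was at 1.25, 1.27 and 1.27 UMIs per 10000 in the WT libraries and at 1.01 and 0.785 in the KO libraries. *Epha3* was at 0.946, 1.92 and 1.62 against 0.733 and 0.559. For both receptors every WT library lay above both KO libraries, as in all kept cells. *Ephb2* also lay lower in the KO libraries here (0.383, 0.301 and 0.4 against 0.195 and 0.299), although it overlapped in all kept cells. The share of all genes that separate in this way was not counted. *Epha5*, at 3.28, 5.71 and 7.12 against 3.94 and 3.19, overlapped, since WT2 lay below KO4. *Epha7* held 0.313, 0.402 and 0.497 against 0.712 and 0.568, and *Ephb1* 0.258, 0.350 and 0.455 against 0.542 and 0.470, so that both lay higher in KO4 and KO5. In the vascular and microglial gate *Epha7* was at 0.0669, 0.0626 and 0.296 against 0.550 and 0.648. *Ephb1* was there at 0, 0.0626 and 0.285 against 0.438 and 0.179. In KO4 and KO5 this gate thus held 77.3 and 114% of the upper layer level of *Epha7*, and 80.8 and 38% of that of *Ephb1*. *Efna5* was at 0.171, 0.084 and 0.110 against 0.150 and 0.2. In the vascular and microglial gate of KO4 and KO5 it was at 0.156 and 0.167, close to its level in their neurons. In that gate of WT4 it was at 0.146, above the WT4 neurons. These gate values of *Efna5* rest on 5, 2 and 9 UMIs in KO4, KO5 and WT4.

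GABAergic neurons numbered 92, 75 and 930 cells in the WT libraries and 373 and 249 in the KO libraries. They called no member by limma, edgeR or DESeq2, beside 3.08% of 8123 genes in limma, 98 higher and 152 lower. By edgeR with TMM these were 218 and 158, and 137 and 125 when scaled without haemoglobin, mitochondrial and ribosomal genes. With the replicate block 0 genes were called. An unadjusted limma p under 0.05 was found for 3 members and for 1630 of the 8123 genes. *Epha4* was at 1.3, 1.72 and 1.75 against 0.927 and 0.847 (-0.69 ± 0.20, limma adjusted p = 0.0841), and *Epha7* at 0.504, 0.203 and 0.494 against 0.759 and 0.717 (0.64 ± 0.25, limma adjusted p = 0.173). *Ephb1* was at 0.178, 0.373 and 0.321 against 0.587 and 0.463 (0.53 ± 0.23, limma adjusted p = 0.219). *Efna3* (0.310, 0.0877 and 0.164 against 0.321 and 0.350) and *Efnb2* (0.819, 0.507 and 0.668 against 1.01 and 0.917) also had higher values in both KO libraries and *Efnb1* (0.760, 0.595 and 0.572 against 0.440 and 0.446) lower ones, and none of these passed. *Epha5* (3.51, 3.12 and 5.19 against 3.94 and 2.94) and *Epha3* (1.02, 1.01 and 0.548 against 0.678 and 0.587) overlapped between the genotypes. With the replicate block, which takes in WT5 and the 11 cells of KO2, *Epha5* was at -0.92 (95% interval -1.50 to -0.34) with a limma adjusted p of 0.774.

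**Figure D5:**
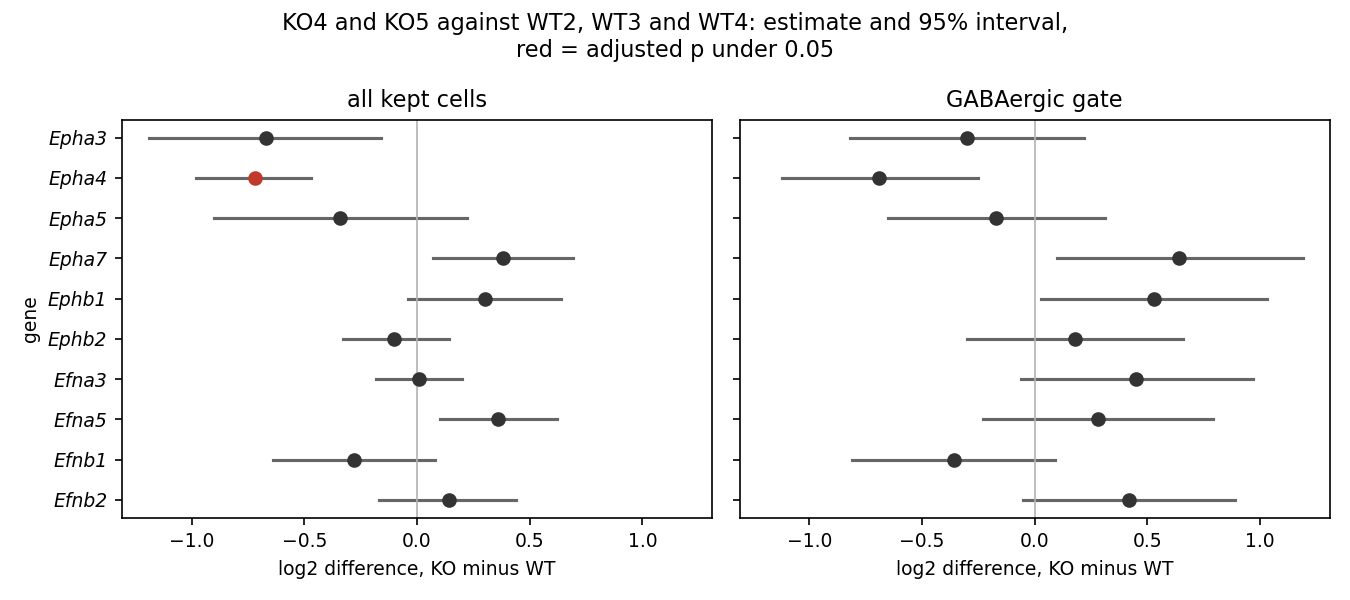
Difference of each member between KO4 and KO5 and WT2, WT3 and WT4, in log2 units with 95% intervals, in all kept cells and GABAergic neurons. Only *Epha4* in all kept cells (-0.72) has an adjusted p under 0.05, and its estimate in GABAergic neurons is -0.69.

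Of the 12 other Eph receptors and ephrins, 4 passed the limit on low values in all kept cells and 3 in GABAergic neurons, and none was called between the genotypes by limma (0 and 2 had an unadjusted p under 0.05). In the WT libraries *Efnb3*, a transmembrane ephrin of the midline and of cortical neurons, was higher in glutamatergic neurons than in radial glia (0.51 ± 0.12, limma adjusted p = 0.00607). Of the 36 listed signalling partners, 32 were tested in all kept cells, and 1 was called, *Rhoa*, the GTPase downstream of the receptors, which was higher in KO4 and KO5 (0.69 ± 0.11, limma adjusted p = 0.0319), beside 1.11% of all genes. This call was lost with the replicate block, with WT5, with all libraries, without KO5 and with over 0.2% haemoglobin left out, where limma called 0 genes. In GABAergic neurons 33 were tested and none was called by limma (6 had an unadjusted p under 0.05, beside 1630 of 8123 genes). In the WT libraries 7 of 31 partners tested were higher and 4 lower in glutamatergic neurons than in radial glia, beside 38.6% of all genes called. *Chn1*, a GTPase-activating protein that acts below EphA4, was among the higher (0.79 ± 0.14) and *Rhoa* among the lower (-1.11 ± 0.15).

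Of the 39 listed guidance genes outside the family, 25 were tested in all kept cells and none was called by limma. Their median was -0.07 against -0.11 over all genes. An unadjusted limma p under 0.05 was found for 8 of them, beside 2185 of 8229 genes. In GABAergic neurons 24 were tested and none was called (4 had an unadjusted p under 0.05, beside 1630 of 8123 genes). In the WT libraries 19 of 26 guidance genes tested were called between glutamatergic neurons and radial glia, 14 of them higher in neurons, beside 38.6% of all genes.

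The genes with the most similar pattern to each member were read from 38 pairs of gate and library with at least 20 cells each, among genes with a mean of at least 0.5. Pairs of 1 library share its depth and its background, so these coefficients are a description. *Epha4* (r = 0.893) and *Epha5* (r = 0.864) were both closest to *Meis2*, and *Tcf4* and *Sh3bgrl* followed for *Epha4* (both r = 0.847). *Sox11* (r = 0.856) and *Plxna2* (r = 0.844) followed for *Epha5*. In the 23 pairs of the WT libraries *Meis2* remained first for both (r = 0.903 and 0.919), and *Tcf4* was no longer among the first 3 for *Epha4*. *Epha3* was closest to *Trim2* (0.81), *Igfbpl1* and *Rae1*, *Epha7* to *Spin1* (0.772), 9330159F19Rik and *Runx1t1*, *Ephb1* to *Grin2b* (0.832), *Lmo3* and *Neto2*, and *Ephb2* to *Zcchc18* (0.762), *Rtn1* and *Tubb4a*. *Efna3* was closest to *Ly6h* (0.816), *Map1lc3a* and *Gap43*, *Efna5* to *Arid1b* (0.641), *Mrps16* and *Cmpk1*, *Efnb1* to *Idh2* (0.822), *Fam210b* and *Ldhb*, and *Efnb2* to *Shtn1* (0.789), *Tenm2* and *Prkar2b*. In the WT pairs another gene came first for *Epha3* (*Afap1*), *Epha7* (*Atat1*), *Ephb2* (*Tubb4a*), *Efna3* (*Map1lc3a*), *Efna5* (*Hsbp1*) and *Efnb1* (*Pex2*).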

How the data were processed

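E18.5 neocortices were profiled with the Chromium 3′ v2 kit. The study's methods name Cell Ranger on GRCm38 (Ensembl annotation), and the submitters' processing notes list Cell Ranger 2.1.0 and Seurat 2.3.4. UMI counts were deposited by the authors for 4 libraries (WT4, WT5 and both KO4 and KO5). The other tables hold, as the authors deposited them, the natural log of 1 plus UMIs per 10000, from which 100% of values were recovered as whole UMIs within 1e-06. Depth was 348105 to 29767293 UMIs per library.

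Cells had 1000 to 5000 genes, 1800 to 10000 UMIs, under 6% mitochondrial and at most 1% haemoglobin UMIs. No doublet caller was run, and a fit without the 5% of cells with the most UMIs was an alternative. Cells tied between marker classes entered no gate. Means over cells were fitted with limma 3.58.1 (trend, robust), as log2 of UMIs per 10000 plus 0.25, where a gene averaged 0.1 or more, and p-values were adjusted by Benjamini-Hochberg over all genes (called under 0.05). edgeR 4.0.16 and DESeq2 1.42.0 on summed counts served as alternatives. The genotype fits by limma, and no class contrast, were also run on simulated counts. These counts had 1 dispersion for all genes and no difference in background between libraries, so they do not check the fits against such a difference. Members and lists were chosen with earlier results of these data known. All 10 members are named, with the 3 genes closest in pattern, and of each list at most 5 called genes. Same-numbered WT and KO libraries deviated together (r = 0.634, 0.318 and 0.419 for numbers 2, 4 and 5, although WT5 with KO4 had 0.332). These are deviations from the mean of the few libraries of each label, which ties them to one another, so they do not settle a pairing. The replicate number was used as a block on the assumption that it pairs libraries. The labels do not say what a number shares, and only the fit with the replicate block uses it. Exact permutation tests were used for single values. Alternatives changed the pseudocount, the limit on low values, the tool, the thinning, the scaling, the cells or the libraries. The levels set beside the vascular and microglial gate, and 3 markers in the WT libraries alone, were added after the data were seen. Planned comparisons in a further group of cells are not reported here.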

Additional observations from a re-analysis of the deposited data

How the results depend on the processing

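The comparison of 3 WT with 2 KO libraries limits every genotype value, and the vascular and microglial gates of KO4 and KO5 held neuronal transcripts at 73.3 and 89.1% of the level in upper layer neurons. Low members such as *Efna5* rest on few UMIs. Of 820 values of members under an alternative, 702 kept direction and side of the threshold, 51 lost it, 15 gained it and 43 turned direction, while 9 shares of upper layer cells with a UMI moved by more than the spread when cells were not thinned. The cause was not tested for any of them. With over 0.2% haemoglobin left out, 4 libraries remained in GABAergic cells.

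In all kept cells 1 member was called. The count was 0 without a limit on low values, by edgeR with TMM or RLE, with over 0.2% haemoglobin left out, with WT5, with all libraries and with the replicate block, and 0 to 4 on leaving out a library, the 4 without WT4. Between glutamatergic neurons and radial glia 6 were called, 1 with a pseudocount of 0.1, 0 without a limit on low values, 3 after thinning, 3 without the 5% of cells with the most UMIs and 0 to 8 on leaving out a library.

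Genes called in all kept cells numbered 91, against 49 with a mean of at least 0.5, 317 by DESeq2, 0 with over 0.2% haemoglobin left out and 0 to 1416 on leaving out a library. In GABAergic neurons they numbered 250, against 27 without a limit, 376 by edgeR with TMM, 131 after thinning, 13 with over 0.2% haemoglobin left out and 21 to 926 on leaving out a library. Both counts were 0 with WT5, with all libraries and with the replicate block (613 and 430 genes with an unadjusted limma p under 0.05 under the block), and the block changed no other call. Between glutamatergic neurons and radial glia 2113 were called, 1392 with a pseudocount of 0.1, 0 without a limit, 1162 after thinning, 3253 in the WT libraries and 0 to 3041 on leaving out a library. Between glutamatergic and GABAergic neurons 0 were called, 521 in the WT libraries and 240 there with 3 markers.

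The log2 differences that turned direction were mostly small. In all kept cells these were *Efna3* with haemoglobin cells included (-0.007), with WT5 (-0.001), with all libraries (-0.356) and with the block (-0.171), *Epha7* with over 0.2% haemoglobin left out (-0.320), with all libraries (-0.075) and with the block (-0.029), *Efnb1* in the same 3 fits (0.247, 0.071 and 0.181), *Ephb2* with all libraries (0.229) and the block (0.019), and *Efnb2* with the block (-0.050). In GABAergic neurons they were *Epha5* by edgeR with TMM (0.048) and RLE (0.040), by DESeq2 (0.047), with 3 markers (0.213) and on leaving out a library (-0.363 to 0.036, positive without WT4 or KO5), *Epha3* with over 0.2% haemoglobin left out (0.274), *Ephb1* with all libraries (-0.244) and *Efnb2* with the block (-0.141). Between upper and deep layer they were *Efnb1* after thinning (-0.019), *Epha4* with 3 markers (0.126), *Efna3* on leaving out a library (-0.012 to 0.187, negative without WT3), and *Efna5* in the WT libraries (0.065) and on leaving out a library (-0.242 to 0.049, positive without WT4). Between glutamatergic and GABAergic neurons they were *Efnb2* after thinning (-0.050), with 3 markers (-0.017) and on leaving out a library (-0.088 to 0.107, negative without WT3 or WT4), *Epha4* with 3 markers in 5 libraries (0.032) and in the WT libraries (0.120) and on leaving out a library (-0.119 to 0.013, positive without WT3, WT4 or KO5), *Efnb1* with 3 markers in 5 libraries (0.164) and in the WT libraries (0.016), *Epha7* with all libraries (-0.079) and on leaving out a library (-0.071 to 0.147, negative without WT3), and *Efna5* with all libraries (0.111) and on leaving out a library (-0.129 to 0.029, positive without WT4 or KO4).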

Other observations

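The libraries outside the comparisons held the members at these levels. In all kept cells *Epha5* was at 2.53 UMIs per 10000 in WT1, 4.23 in WT5, 2.25 in KO1 and 1.24 in KO2, the last below every compared library. *Efna3* was at 0.0446 in KO1, against 0.169 to 0.357 in the other 8 libraries. In the 415 GABAergic and 791 upper layer cells of WT5, *Epha5* was at 4.5 and 4.4, and its vascular and microglial gate held 2.98 in 69 cells, which is 67.7% of its upper layer level. Among the 331 cells of KO1, radial glia held *Efnb1* at 1.34 and upper layer neurons at 0.333, in the order seen in WT2, WT3 and WT4.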
